A study of Homo sapiens with 14 samples.

Results

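The CIDE and perilipin genes were followed as messenger RNA through human pancreatic differentiation and under I-BET151, which blocks the BET bromodomain proteins. They were 8 genes, the 3 CIDE genes CIDEA, CIDEB and CIDEC and the 5 perilipin genes PLIN1 to PLIN5, of 60624 gene identifiers listed in each library. The genes were chosen by name. They were selected on earlier results of these data, in which some of them differed between DMSO and I-BET151, so their values in that comparison are given as a description with no test. CIDEB and CIDEC stood out among them. In pancreatic progenitors (PPs) kept with the solvent DMSO both were at 49.1 to 78.5 TPM, and with I-BET151 both were at 0.408 to 1.59 TPM.

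All 14 libraries came from MEL1, an established human embryonic stem cell line, which by the methods of the study was MEL1 INS GFP/W, a reporter line with GFP placed at INS. The undifferentiated cells (hPSC, grown on CF1 feeder cells), definitive endoderm (DE), the PPs made from them by stepwise differentiation (PP2) and β-like cells obtained by the direct route (SC-β) had 1 library each in batch 1. Expandable PPs at passage 9 (ePP-P9) and passage 21 (ePP-P21) and the β-like cells made from expandable PPs (ePP-β) had 2 libraries each in batch 2. PPs treated for 7 days with DMSO or with 1 μM I-BET151 had 2 libraries each in batch 3. By the methods of the study, expandable PPs (ePPs) grew on feeder cells in a medium that held EGF, bFGF, the TGFβ inhibitor 616452 and 1 μM I-BET151. The ePP-P9 and ePP-P21 libraries were therefore from cells in I-BET151 too. In the screen of the study, PPs were first passaged in the same medium without I-BET151, and the labels do not give the passages of the DMSO and I-BET151 libraries. The labels do not say whether 2 libraries of a group came from separate cultures, so p-values measure only the spread between these libraries, which may be technical.

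Lipid droplets store triglycerides and sterol esters behind a single layer of phospholipid that carries a coat of proteins. Perilipins make up much of this coat and control the access of lipases to the stored fat. CIDE proteins gather where droplets touch and let lipid pass from the smaller to the larger droplet. CIDEC and PLIN1 are known from fat cells, CIDEA from brown fat, and CIDEB from liver and small intestine, where it serves the loading of lipoproteins with lipid.

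The values were in TPM, a share of each library corrected for transcript length, so that levels can also be compared between genes. The read depth is unknown. Between 14982 and 17578 genes per library reached 1 TPM, and ribosomal protein genes took between 9.78% and 27.9% of the listed TPM. The stage markers followed the labels. POU5F1, SOX2 and NANOG, which mark pluripotent cells, summed to 3764 TPM in hPSC and to 401 TPM in DE. INS, the insulin gene, was at 10916, 17374 and 20658 TPM in the 3 β-like libraries and at no more than 3.03 TPM in the other 11. The PP markers PDX1, NKX6-1 and SOX9 all reached 1 TPM in the PP2, ePP, DMSO and I-BET151 libraries.

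CIDEC lies on the minus strand of chromosome 3 (chr3:9866711-9880255, GRCh38), CIDEB on the minus strand of chromosome 14 (chr14:24305187-24311430) and PLIN2 on the minus strand of chromosome 9 (chr9:19108375-19149290). PLIN3, PLIN4 and PLIN5 lie on chromosome 19, with 4044 bases between PLIN4 and PLIN5. CIDEC and PLIN2 are shown with the bases before their start, and CIDEB with a short stretch, since its windows reach into other genes. These 3 members reached 1 TPM, with both I-BET151 libraries below both DMSO libraries and both ePP-β libraries above all ePP libraries. The sequences are those of RefSeq on GRCh38.p14, 5′ to 3′ on the strand of the gene, with motif matches in capitals. The CIDEC window is chr3:9880254-9880503, next to the farthest annotated start, and its capitals mark a GC box (GGGCGG) 12 bases before the start. The PLIN2 window is chr9:19127493-19127742, inside the annotated span of PLIN2 but free of exons. Its capitals mark GC boxes, an E-box (CACGTG) 69 bases before the start and a TATA box (TATAAA, on the opposite strand) 29 bases before it. The stretch in CIDEB is chr14:24308013-24308042, in an intron of CIDEB and in the untranslated end of NOP9 on the opposite strand. It is shown for the only match among the members to CAAAGTCCA, a sequence of the kind that the liver and gut factor HNF4A binds, which lies on the opposite strand 55 bases before the second CIDEB start.
CIDEC: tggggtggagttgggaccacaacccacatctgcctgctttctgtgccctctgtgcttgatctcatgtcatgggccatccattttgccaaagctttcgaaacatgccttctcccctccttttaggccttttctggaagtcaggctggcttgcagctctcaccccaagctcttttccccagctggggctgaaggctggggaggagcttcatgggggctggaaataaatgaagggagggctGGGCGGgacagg
PLIN2: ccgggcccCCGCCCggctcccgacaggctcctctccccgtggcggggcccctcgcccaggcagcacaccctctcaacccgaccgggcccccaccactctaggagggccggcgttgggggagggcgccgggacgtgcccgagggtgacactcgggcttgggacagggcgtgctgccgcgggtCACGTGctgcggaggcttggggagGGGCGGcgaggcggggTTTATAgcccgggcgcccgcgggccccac
CIDEB: tccctcccctTGGACTTTGcccttcttact

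All 8 members had a window of 250 bases, and CIDEB and CIDEC had a second one. Each motif was searched on both strands, against 35116 such windows over all genes. The sequence CAAAGTCCA occurred in 0.325% of them, TATAAA in 10.7%, CACGTG in 6.34% and GGGCGG in 42.6%. The nuclear receptor sequence AGGTCA (12.1% of windows) and the FOXA-type sequence TGTTTAC (2.98%) were not found in the windows of the members. These matches are descriptions of the letters, and gene-level TPM does not tell which start was used.

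PLIN2 and PLIN3 were the perilipins that these cells carried, and CIDEB and CIDEC were the CIDE genes. PLIN2, the perilipin that coats droplets in most cell types, reached 10 TPM in all 14 libraries and ranged from 24.2 TPM in an ePP-P9 library to 186 TPM in an ePP-β library. PLIN3, which moves between the cytosol and young droplets, ranged from 21.1 to 153 TPM. PLIN5, known from tissues that burn fat, where it links droplets to mitochondria, stayed between 0.198 and 5.64 TPM. PLIN4, another fat cell perilipin, stayed between 0.200 and 1.62 TPM. PLIN1 stayed under 1 TPM in every library, with its highest value of 0.547 TPM in DMSO replicate 1. CIDEA was listed at 0 in 12 of 14 libraries and was at 0.0575 TPM in hPSC and 0.0503 TPM in ePP-β replicate 1. An exact 0 may not be a measured absence here, since all 37 mitochondrial genes were listed at 0 in every library. The members known from fat cells were thus at unlike levels. PLIN1 and CIDEA were at or near 0 and PLIN4 did not exceed 1.62 TPM, while CIDEC reached 78.5 TPM.

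**Figure D1:**
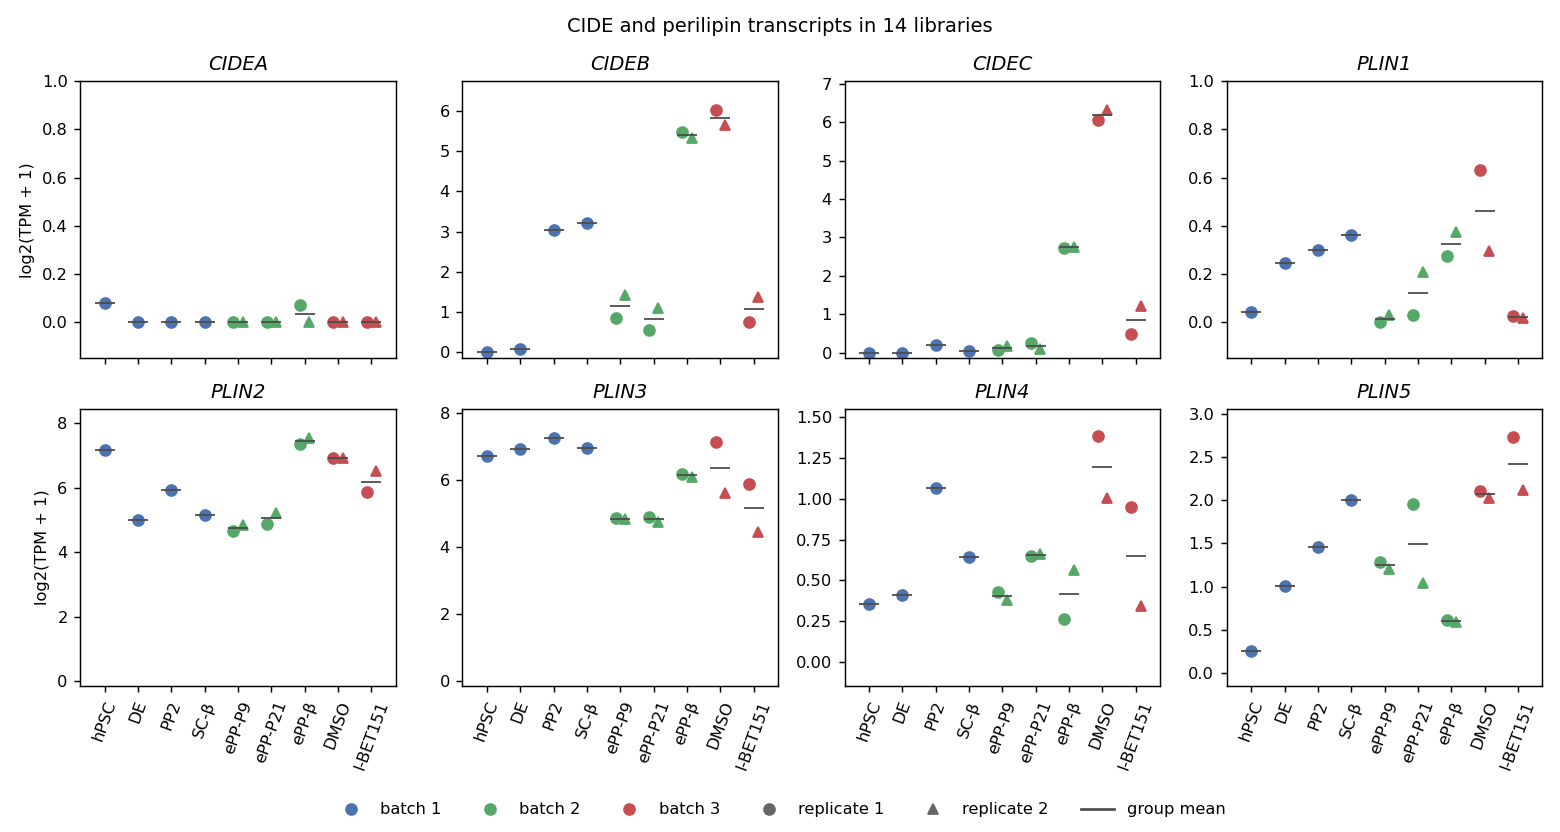
The 8 panels plot log2(TPM + 1) of each member (vertical axis, scaled for each gene) in the 9 groups (horizontal axis), with 1 point per library, colours for the batches and a line at the group mean. CIDEB and CIDEC are high in DMSO and ePP-β and low in I-BET151 and both ePP groups, while CIDEA and PLIN1 stay below 1 on this scale in every group.

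CIDEC was above 2 TPM in DMSO and ePP-β alone. The DMSO libraries held 65.7 and 78.5 TPM and the ePP-β libraries 5.59 and 5.79 TPM. It was at 0.408 and 1.33 TPM with I-BET151, and at or below 0.185 TPM in PP2, SC-β, DE, hPSC and the 4 ePP libraries. The order of the group means was DMSO, ePP-β, I-BET151, PP2, ePP-P21, ePP-P9, SC-β, hPSC and DE. The values of PP2, ePP-P21 and ePP-P9 overlapped. The means from I-BET151 down were under 1 TPM, so their order cannot be relied on.

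CIDEB followed the same order at the top and was more widely present. DMSO held 64.0 and 49.1 TPM, ePP-β 43.7 and 39.1 TPM, SC-β 8.26 TPM and PP2 7.21 TPM. The 4 ePP libraries held between 0.482 and 1.69 TPM and the I-BET151 libraries 0.697 and 1.59 TPM, and these 3 groups overlapped. It was at 0.0604 TPM in DE and near 0 in hPSC. Over the 14 libraries CIDEB and CIDEC had a Pearson r of 0.84 and a Spearman rho of 0.73 on log2(TPM + 1), values that share batches and groups.

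The CIDE genes differed in their shares between DMSO and the β-like cells. CIDEC was 1.03 and 1.60 times CIDEB in the DMSO libraries, and 0.128 and 0.148 times CIDEB in the ePP-β libraries. In SC-β and PP2 CIDEB made up 99.6% and 98.0% of the CIDE transcripts.

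PLIN2 was highest in ePP-β (162 and 186 TPM), then in hPSC (142 TPM), DMSO (120 and 122 TPM) and I-BET151 (57.5 and 90.1 TPM), whose values lay on either side of PP2 (60.6 TPM). SC-β (34.5 TPM), ePP-P21 (28.5 and 36.4 TPM), DE (30.9 TPM) and ePP-P9 (24.2 and 27.8 TPM) followed, and SC-β and DE lay within the range of ePP-P21. PLIN3 was highest in PP2 (153 TPM), SC-β (124 TPM), DE (122 TPM) and hPSC (104 TPM). It was lowest in the ePP libraries (26.2 to 29.2 TPM) and in I-BET151 replicate 2 (21.1 TPM). The ratio of PLIN2 to PLIN3 was 0.253 in DE, 0.397 in PP2 and 0.277 in SC-β, against 2.27 and 2.74 in ePP-β. The summed perilipin transcripts were 54.0 to 64.4 TPM in the 4 ePP libraries and 115 to 265 TPM in the other 10.

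**Figure D2:**
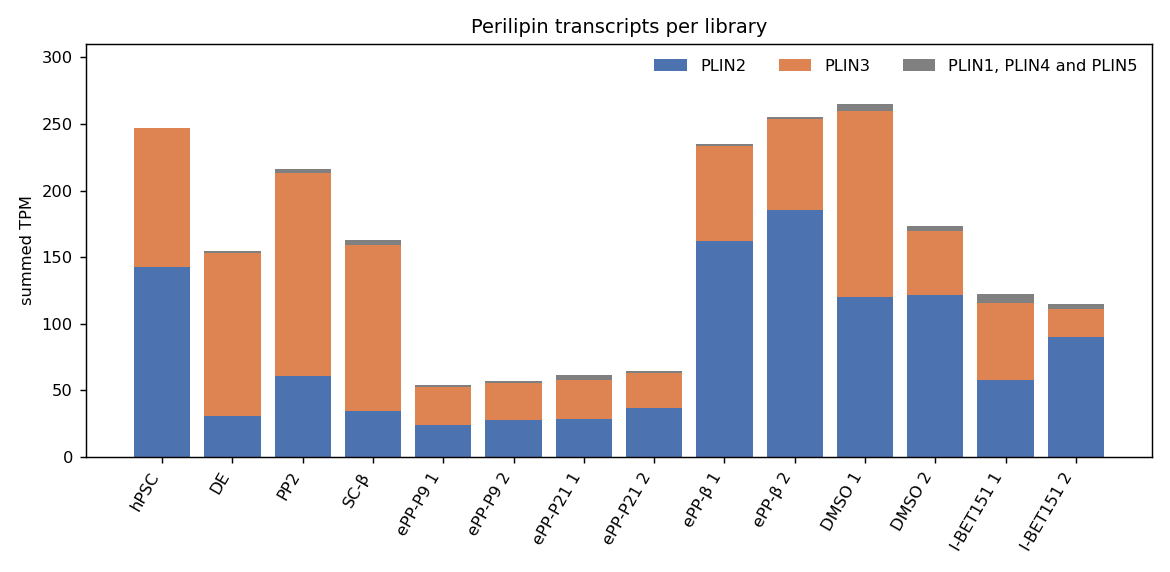
Stacked bars give the summed TPM of the 5 perilipins (vertical axis) in each of the 14 libraries (horizontal axis), split into PLIN2, PLIN3 and the other perilipins. The 4 ePP libraries have the lowest sums, at 54.0 to 64.4 TPM, and PLIN2 takes 69.1% and 72.9% of the sum in the ePP-β libraries.

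The DMSO and I-BET151 libraries addressed what changes in PPs when the BET proteins are inhibited. With I-BET151, CIDEC was at 0.408 TPM in replicate 1 and 1.33 TPM in replicate 2, against 65.7 and 78.5 TPM with DMSO. These are differences of -5.57 and -5.09 in log2(TPM + 1) between same-numbered libraries. CIDEB was at 0.697 and 1.59 TPM with I-BET151, against 64.0 and 49.1 TPM, differences of -5.26 and -4.27 in log2(TPM + 1). Among the 16687 genes kept in this comparison (at least 1 TPM in at least 2 libraries), CIDEC ranked 4 and CIDEB ranked 13 by the most negative mean difference. These are values of the contrast on which the genes were selected.

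PLIN2 and PLIN4 were lower with I-BET151 to a much smaller extent. PLIN2 was at 57.5 and 90.1 TPM, 47.9% and 74.1% of the DMSO libraries of the same number. PLIN4 was at 0.929 and 0.270 TPM against 1.62 and 1.01 TPM, and it was kept only through its DMSO values. PLIN5 went the other way, at 5.64 and 3.34 TPM with I-BET151 against 3.32 and 3.07 TPM, and the lower I-BET151 value was close to the higher DMSO value.

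PLIN3 was lower with I-BET151 in both same-numbered comparisons, at 41.7% and 44.2% of DMSO, but its groups overlapped. It was at 139 and 47.8 TPM with DMSO and at 58.0 and 21.1 TPM with I-BET151, so replicate 1 was 2.91 times replicate 2 in DMSO and 2.75 times in I-BET151. PLIN1 was at 0.547 and 0.228 TPM with DMSO and at 0.0175 and 0.0130 TPM with I-BET151, and CIDEA was listed at 0 in all 4 libraries. Of the 6 members kept, 4 (CIDEB, CIDEC, PLIN2 and PLIN4) had both I-BET151 libraries below both DMSO libraries, where 18.0% of the genes kept did so. PLIN5 had both above, as did 4795 of the 16687 genes kept. The members were selected on this contrast and PLIN4 was kept only through DMSO, so these counts are a description and no excess is read from them. In bulk RNA, fewer cells of a type and less RNA per cell cannot be told apart.

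**Figure D3:**
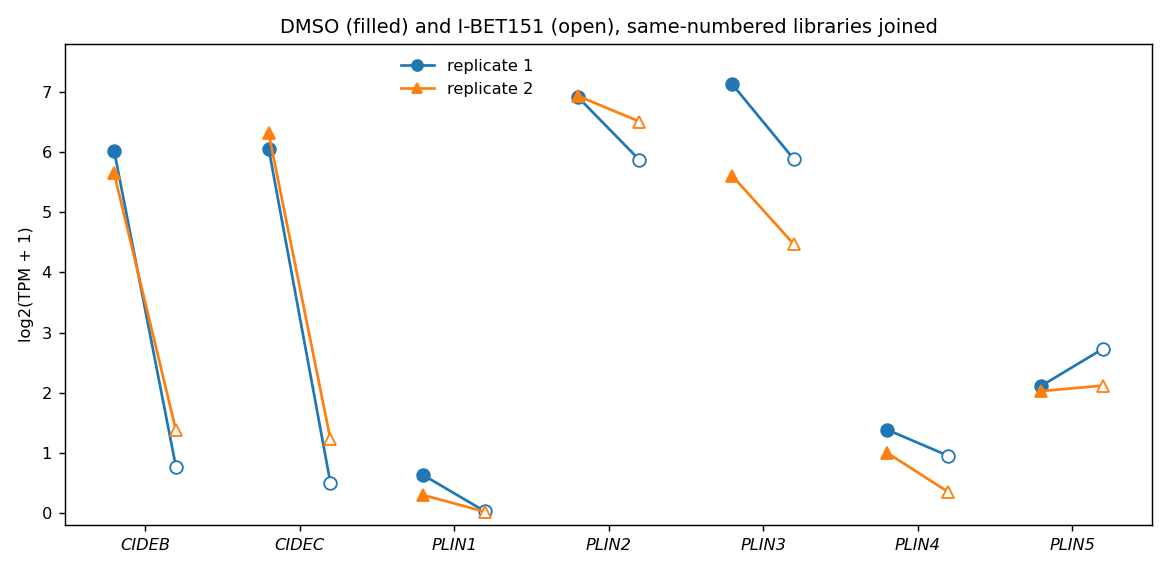
The plot gives log2(TPM + 1) (vertical axis) of 7 members in DMSO (filled) and I-BET151 (open), with a line joining libraries of the same replicate number and CIDEA left out because it is listed at 0 in all 4. The lines of CIDEB and CIDEC span -4.27 to -5.57 on this log2 scale, and those of the perilipins are much shorter, with PLIN5 pointing up.

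Markers of liver and gut cells were lower in the same libraries. The enterocyte markers (CDX2, CDH17, VIL1, FABP2, APOA4, ALPI and SI) summed to 1824 and 2218 TPM with DMSO and to 256 and 393 TPM with I-BET151. Of these 7 genes, 6 had both I-BET151 libraries below both DMSO libraries, all 7 reached 1 TPM in DMSO, and 6 did so with I-BET151. APOA4 alone held 927 and 1473 TPM of the DMSO sums and 44.3 and 156 TPM of the I-BET151 sums. The hepatocyte markers (ALB, AFP, APOA1, TTR, SERPINA1, FGB and HNF4A) summed to 11509 and 9710 TPM with DMSO and to 1396 and 3254 TPM with I-BET151, with 5 of 7 below in the same way. All 7 reached 1 TPM in both groups. Without TTR, which islet cells also make, the sums were 10460 and 8490 TPM with DMSO and 1341 and 3193 TPM with I-BET151. FABP2, APOA4, APOA1 and HNF4A in these lists also stand in the lipid lists used here. The 3 PP markers had both I-BET151 libraries above both DMSO libraries, with sums of 820 and 480 TPM against 294 and 215 TPM. Of the 16687 genes kept, 4795 lay above in this way. The mesenchyme markers summed to 192 and 83.5 TPM with DMSO and to 76.4 and 37.3 TPM with I-BET151. The part of these cell type markers in the values of CIDEB and CIDEC was not tested.

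The fat cell markers were at unlike levels. ADIPOQ, the adiponectin gene, and LEP, the leptin gene, did not exceed 0.0360 TPM in any library. The 7 fat cell markers other than CIDEC and PLIN1 summed to 187 and 67.8 TPM with DMSO and to 73.1 and 31.8 TPM with I-BET151. Most of this was PPARG, the nuclear receptor that drives fat cell formation, at 156 and 56.9 TPM with DMSO and at 55.4 and 25.2 TPM with I-BET151. CFD, the adipsin gene, was at 30.9 and 9.97 TPM with DMSO and at 16.2 and 5.52 TPM with I-BET151. Ribosomal protein genes held 20.3% of the TPM in DMSO replicate 1, 27.9% in DMSO replicate 2, 16.8% in I-BET151 replicate 1 and 27.8% in I-BET151 replicate 2.

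**Figure D4:**
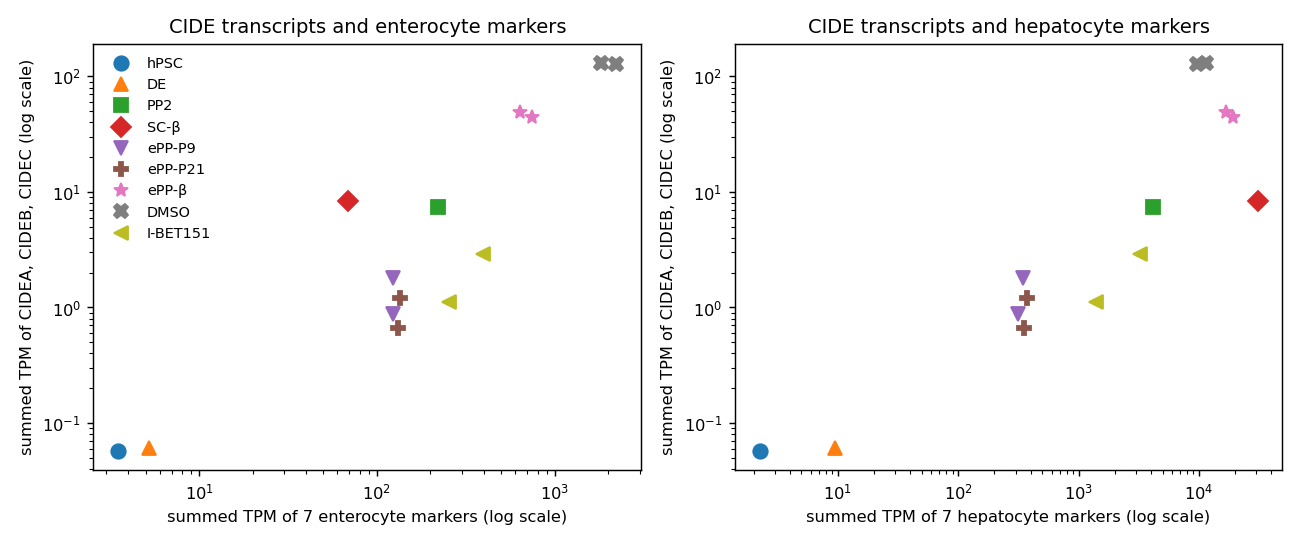
Each point is 1 of the 14 libraries, with the summed TPM of CIDEA, CIDEB and CIDEC (vertical axis, log scale) against the summed TPM of 7 enterocyte markers or 7 hepatocyte markers (horizontal axes, log scale). The DMSO libraries, at 130 and 128 TPM of CIDE transcripts, have the highest enterocyte sums, of which APOA4 holds 927 and 1473 TPM. SC-β, at 8.30 TPM of CIDE transcripts, has a hepatocyte sum of 30644 TPM, of which TTR, also made by islet cells, holds 80.7%.

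Other genes of lipid handling were examined in 7 lists of 106 genes. Between I-BET151 and DMSO none of the 96 tested passed the limma test (adjusted p under 0.05 and a log2 fold change beyond 1), where 35 of all 16687 genes did, or 0.210%. That count of 0 became 4 with median centring or quantile normalization, and 8 without DMSO replicate 1, 9 without DMSO replicate 2, 14 without I-BET151 replicate 1 and 24 without I-BET151 replicate 2. With the replicate number as a block, given below, more were called in the lists and over all genes. The study, with DESeq2, reported many more genes at these thresholds. At an unadjusted p under 0.05 there were 31 of the 96 and 2536 of the 16687. The median log2 fold change was -0.46 over the lists and 0.16 over all genes tested.

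The list of lipoprotein assembly and apolipoproteins had a median of -2.70 (-1.50 without I-BET151 replicate 1), with 10 of 11 genes below 0. APOA4, an apolipoprotein of the gut, was at 44.3 and 156 TPM with I-BET151 against 927 and 1473 TPM (limma adjusted p = 0.1). APOC2, the cofactor of lipoprotein lipase, was at 2.80 and 9.72 TPM against 62.4 and 67.5 TPM (adjusted p = 0.0904). All 14 tested transcription factors of fat metabolism had a log2 fold change below 0, as did 39.1% of all genes tested. Their median was -0.94, and it was -0.45 without DMSO replicate 1 and -1.41 without DMSO replicate 2. The bile acid receptor gene NR1H4 was at 0.474 and 5.40 TPM against 28.4 and 40.0 TPM (adjusted p = 0.129). TFEB, a factor for lysosomal genes, was at 0.0976 and 0.0569 TPM against 8.45 and 6.59 TPM. It was kept only through its DMSO values and is given with no test.

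Synthesis and lipolysis genes had medians of -0.32 and -0.35. The synthesis median was -0.68 without I-BET151 replicate 1 and -0.07 without I-BET151 replicate 2, and the lipolysis median was -1.22 without DMSO replicate 2 and 0.0026 without I-BET151 replicate 2. DGAT2, which makes triglyceride in its last step, was at 1.83 and 1.17 TPM against 30.5 and 48.9 TPM (adjusted p = 0.0502). SOAT2, which makes sterol esters in liver and gut, was at 0.977 and 1.45 TPM against 52.8 and 16.7 TPM (adjusted p = 0.083). MGLL, the monoglyceride lipase, was at 5.09 and 7.38 TPM against 48.0 and 37.3 TPM (adjusted p = 0.068), and LIPC, the hepatic lipase, at 12.5 and 41.0 TPM against 170 and 116 TPM (adjusted p = 0.156).

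For fatty acid uptake and binding the median was -0.54 (-1.07 without DMSO replicate 2), with FABP3 at 1.80 and 1.98 TPM against 27.7 and 25.0 TPM (adjusted p = 0.0502) and FABP6, the ileal bile acid binding protein, at 0.542 and 4.27 TPM against 16.5 and 51.3 TPM (adjusted p = 0.153). The droplet formation and coat list had a median of 0.10 (-0.18 to 0.10 when a library was left out, lowest without DMSO replicate 2) and the oxidation list one of -0.12 (-0.37 without I-BET151 replicate 1 to -0.04 without I-BET151 replicate 2). BSCL2, the seipin gene of droplet formation, was at 44.6 TPM in both I-BET151 libraries against 27.0 and 23.1 TPM (adjusted p = 0.3). HSD17B11, a droplet enzyme, was at 87.6 and 335 TPM against 250.2 and 408 TPM (adjusted p = 0.61). UCP2 was at 107 and 36.7 TPM against 53.3 and 25.3 TPM (adjusted p = 0.64).

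Passages 9 and 21 of the ePPs were compared to ask whether expansion changes the cells. None of the 4 members tested was called between them, where 178 of 15822 genes (1.13%) were, and none had an unadjusted p under 0.05. PLIN2 was at 24.2 and 27.8 TPM at passage 9 and at 28.5 and 36.4 TPM at passage 21 (log2 fold change 0.30, SE 0.16, limma adjusted p = 0.313). PLIN3 was at 28.1 and 27.6 TPM and at 29.2 and 26.2 TPM (-0.01, SE 0.11, adjusted p = 0.973). CIDEB was at 0.815 and 1.69 TPM and at 0.482 and 1.14 TPM (-0.31, SE 0.33, adjusted p = 0.629), and PLIN5 at 1.45 and 1.31 TPM and at 2.87 and 1.06 TPM (0.25, SE 0.35, adjusted p = 0.725). The groups overlapped for CIDEB, PLIN3 and PLIN5 and not for PLIN2. CIDEC, CIDEA, PLIN1 and PLIN4 were below the filter on low values. Of 78 list genes tested, 2 were called. CPT1B, a carnitine palmitoyltransferase of fatty acid oxidation, rose from 7.55 and 8.89 TPM to 25.4 and 31.5 TPM (log2 fold change 1.67, SE 0.17, adjusted p = 0.0319). LPIN3, a phosphatidate phosphatase, rose from 1.61 and 1.36 TPM to 5.11 and 5.14 TPM (1.30, SE 0.21, adjusted p = 0.0499). Both calls were lost when each library was centred on its median, with log2 fold changes of 1.47 for CPT1B and 1.10 for LPIN3, and when either of the ePP-P21 libraries was left out.

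The ePP-β libraries addressed how ePPs change as they become β-like cells in media for which no I-BET151 is listed. CIDEB rose from 0.482 to 1.69 TPM in the 4 ePP libraries to 43.7 and 39.1 TPM in ePP-β (log2 fold change 4.42, SE 0.24, limma adjusted p = 4.51e-05). PLIN2 rose from 24.2 to 36.4 TPM in ePPs to 162 and 186 TPM (2.54, SE 0.13, adjusted p = 3.33e-05). PLIN3 rose from 26.2 to 29.2 TPM to 71.6 and 67.9 TPM (1.30, SE 0.08, adjusted p = 7.65e-05). CIDEC was at 0.0569 to 0.185 TPM in ePPs and at 5.59 and 5.79 TPM in ePP-β. It passed the filter on low values only through its ePP-β libraries, so its values are given with no test. For each of these 4 genes both ePP-β libraries were above all 4 ePP libraries. The share of all genes that did so was not counted, so this order is not read as particular to them. An unadjusted limma p under 0.05 was found for 11251 of all 18076 genes tested, so changes were common.

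PLIN5 was lower in both ePP-β libraries, at 0.535 and 0.511 TPM, than in the 4 ePP libraries, at 1.06 to 2.87 TPM (log2 fold change -0.77, SE 0.27). It passed the filter only through the ePP libraries and is likewise given with no test. PLIN4 (0.200 and 0.478 TPM in ePP-β, 0.298 to 0.580 TPM in ePPs), PLIN1 and CIDEA were below the filter. In this comparison 17.9% of all 18076 genes were called higher and 9.86% lower, so that calls were common at large, and CIDEB, PLIN2 and PLIN3 were the members tested that were called. With quantile normalization the share of higher calls among all called genes was 47.5%, against 64.5% here, and CIDEB, PLIN2 and PLIN3 were called higher in both.

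**Figure D5:**
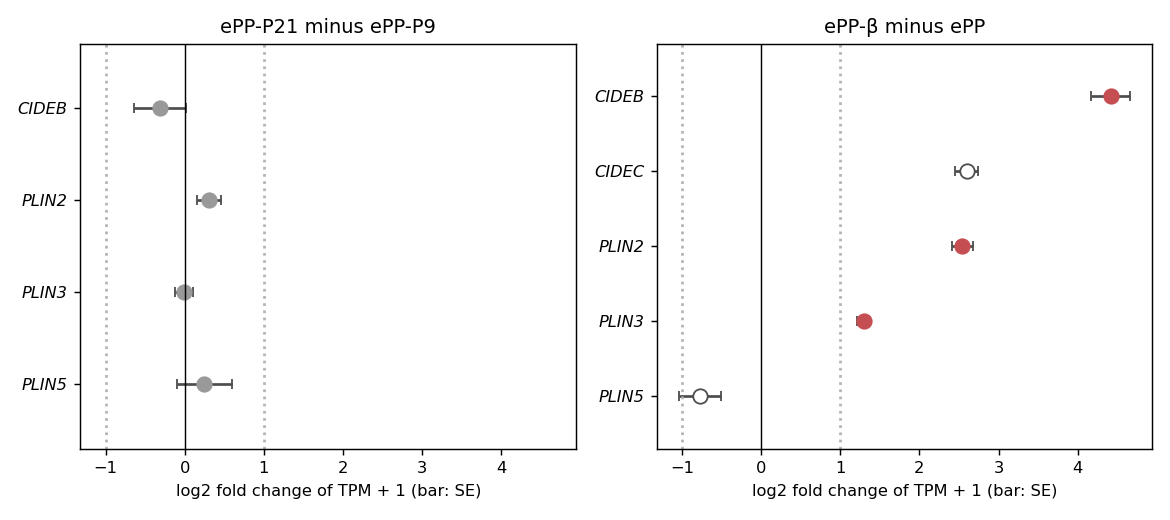
Points give the log2 fold change of TPM + 1 (horizontal axis, bars show the SE) of the members that passed the filter, for ePP-P21 against ePP-P9 (left) and ePP-β against ePP (right), with called genes in red, open points for CIDEC and PLIN5, which are shown with no test, and dotted lines at -1 and 1. CIDEB, PLIN2 and PLIN3 lie at 4.42, 2.54 and 1.30 in the right panel, and no member is called in the left one.

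The markers of several cell types differed between the same libraries. The β cell markers (INS, CHGA, SLC30A8 and PCSK1) summed to 3.61 to 6.97 TPM in ePPs and to 27636 and 32843 TPM in ePP-β, with all 4 at 1 TPM or more in ePP-β. The hepatocyte markers summed to 312 to 373 TPM and to 16720 and 19305 TPM, with 6 of 7 above all ePP libraries. TTR held 77.8% and 80.6% of the ePP-β sums, and without it the markers summed to 301 to 355 TPM in ePPs and to 3705 and 3749 TPM in ePP-β. The enterocyte markers summed to 123 to 136 TPM and to 637 and 746 TPM, also with 6 of 7 above. APOA4 alone held 409 and 511 TPM of the ePP-β sums and at most 0.755 TPM in ePPs. The share of all genes with both ePP-β libraries above all ePP libraries was not counted, so these counts are not read as particular to the markers. The mesenchyme markers showed 38.8 to 60.9 TPM in ePPs and 45.9 and 36.4 TPM in ePP-β. The part of these markers in the rise of the members was not tested.

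Of the 96 tested genes of the lipid lists, 34 (35.4%) were called higher in ePP-β and 7 (7.29%) lower, beside 17.9% and 9.86% of all genes tested. These counts, those of the single lists that follow and those over all genes include genes that passed the filter only through ePP-β. They were not counted again without such genes, so the shares are a description and no excess is read from them. Only 79 list genes still passed the filter with ePP-β replicate 1 left out, and 80 with ePP-β replicate 2 left out, so those fits do not cover the same genes. The lipoprotein list had 7 of 11 called higher and none lower, with a median log2 fold change of 3.45 beside -0.03 for all genes tested. Without ePP-β replicate 1 the list median was 0.96, with APOC3, APOA4 and APOC2 below the filter. APOC3 rose from at most 0.809 TPM to 435 and 506 TPM (log2 fold change 8.32, SE 0.14). APOA4 rose from at most 0.755 TPM to 409 and 511 TPM (8.20, SE 0.17). APOA2 rose from 19.1 to 31.2 TPM to 576 and 655 TPM, and APOC2 to 31.8 and 31.5 TPM. APOC3, APOA4 and APOC2 passed the filter only through ePP-β and are given with no test.

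Of 17 genes of fatty acid uptake, binding and activation, 8 were called higher and 1 lower. ACSL5, which activates fatty acids, rose from at most 0.893 TPM to 51.2 and 60.4 TPM (5.26, SE 0.19). It passed the filter only through ePP-β and is given with no test. The binding proteins FABP3 (4.22), FABP2 (3.98) and FABP1 (2.22 on the log2 scale) rose as well. Lipolysis genes were called in both directions, 5 higher and 2 lower of 11. LIPC rose from 2.61 to 7.40 TPM to 172 and 167 TPM (4.83, SE 0.25, adjusted p = 3.71e-05). MGLL rose by a log2 fold change of 4.42 and G0S2, an inhibitor of the droplet lipase, by 2.33. G0S2 passed the filter only through ePP-β. PNPLA3, a droplet lipase-like protein, fell from 27.5 to 33.5 TPM to 4.07 and 5.24 TPM (-2.47, SE 0.13, adjusted p = 3.91e-05).

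Of 14 oxidation genes and PPAR targets, 4 were called higher and 1 lower. CPT1A, which admits fatty acids to mitochondria, rose from at most 0.179 TPM to 17.3 and 19.6 TPM (4.07, SE 0.15). PDK4 (3.46) and ANGPTL4 (2.87) rose as well. Of 14 transcription factors 4 were called higher, among them MLXIPL (4.28), NR1H4 (3.80) and CEBPA (1.67). CPT1A, ANGPTL4, MLXIPL and NR1H4 passed the filter only through ePP-β. In the synthesis list 4 of 17 were higher and 2 lower, with AGPAT2 at 108 and 125 TPM against 55.3 to 57.0 TPM and LPIN1 at 4.17 and 9.81 TPM against 9.67 to 23.8 TPM. In the droplet formation list 2 of 12 (16.7%) were higher and 1 (8.33%) lower, near the shares over all genes. BSCL2 rose from 47.5 to 56.6 TPM to 214 and 147 TPM, MOSPD2 by a log2 fold change of 1.04, and HSD17B11 fell from 297 to 404 TPM to 172 and 149 TPM.

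Between batches the group and the batch cannot be told apart, and the values were set side by side. The ePP libraries and the I-BET151 libraries were both cultured with I-BET151. CIDEB was at 0.482 to 1.69 TPM in the first and 0.697 and 1.59 TPM in the second. CIDEC was at 0.0569 to 0.185 TPM in the first and at 0.408 and 1.33 TPM in the second. Values below 1 TPM cannot be told from 0 here, so no difference is read from CIDEC. PLIN2 was at 24.2 to 36.4 TPM against 57.5 and 90.1 TPM. The DMSO libraries differed from the other PPs without I-BET151, those of PP2, by 5.99 log2 units for CIDEC (72.1 ± 9.09 TPM, SD, n = 2, against 0.145 TPM) and by 2.80 for CIDEB (56.5 ± 10.6 TPM against 7.21 TPM). Library medians differed by 0.48 log2 units between these groups, and centring on them left both differences with the same sign.

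The β-like cells from the different routes were also set side by side. The ePP-β libraries held 5.59 and 5.79 TPM of CIDEC where SC-β held 0.0315 TPM, and PLIN2 was at 162 and 186 TPM against 34.5 TPM. CIDEB was at 43.7 and 39.1 TPM against 8.26 TPM, while PLIN3 (71.6 and 67.9 TPM against 124 TPM) and PLIN5 (0.535 and 0.511 TPM against 3.01 TPM) were lower in ePP-β. From hPSC to DE, PLIN2 went from 142 to 30.9 TPM with PLIN3 at 104 and 122 TPM, and from DE to PP2, CIDEB went from 0.0604 to 7.21 TPM. These stages had 1 library each and no replicate check.

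Genes with patterns most like those of the members were taken from 13623 protein-coding genes by Pearson r of log2(TPM + 1) over the 14 libraries. For CIDEB these were NEURL3 (r = 0.98), the unnamed gene ENSG00000284695 (0.97) and UNC93A (0.96). For CIDEC they were TUBAL3 (0.98), POF1B (0.98) and the fructose transporter gene SLC2A5 (0.98). For PLIN2 they were KLF11 (0.95), CDCP1 (0.94) and IL32 (0.92), and for PLIN3 LMTK3 (0.97), TMEM223 (0.95) and PAOX (0.95). PLIN4 was most like GPT (0.91), ILVBL (0.90) and SLC9A3 (0.90), and PLIN5 most like D2HGDH (0.91), TST (0.86) and GNRH2 (0.85). The points share batches and groups, so these correlations are descriptions.

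Shared sequence limits some of these values, since the use of strand in counting was not stated. CIDEB overlaps NOP9 and LTB4R2 on the opposite strand, and these stayed at 9.83 to 21.8 TPM and 1.80 to 19.3 TPM over the 14 libraries. PLIN1 overlaps PEX11A, PLIN4 overlaps HDGFL2 by their ends, and PLIN5 overlaps ENSG00000267385 on the same strand, so the low values of PLIN1, PLIN4 and PLIN5 are uncertain.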

How the data were processed

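RNA of 14 libraries of the MEL1 line was sequenced as paired ends after library preparation with the NEBNext Ultra kit. The authors aligned reads to GRCh38 (hg38) with HISAT2 2.1.0, assembled transcripts with StringTie and deposited TPM summed per gene identifier. Neither the annotation release nor strand use was given in the sources used here. Of 60624 identifiers, 60370 matched GENCODE release 44. TPM keeps no read number, so depth, counting intervals and floors cannot be given, and precision rests on 2 libraries per group. Any value of exactly 0 is reported as listed at 0.

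Groups and replicate numbers came from the sample titles and batches from the descriptions. A gene was kept where 2 or more libraries of a fit reached 1 TPM. On log2(TPM + 1), which understates the change of low genes, linear models came from limma 3.58.1 (R 4.3.3, intensity trend, two-sided, Benjamini-Hochberg adjustment over all genes kept). A gene was called at an adjusted p under 0.05 and a log2 fold change beyond 1 in size, the thresholds of the study. Fits stayed within a batch, and ePP-P9 and ePP-P21 had equal weight in the ePP level. The code was tested on simulated data.

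The 8 members and all gene lists were chosen with earlier results of these data known. List genes were named as up to 4 called genes per list with the largest log2 fold change in size and 5 TPM or more as the mean of the higher group, or up to 2 where none was called. Some list genes that this rule names are not reported here. Alternatives were a pseudocount of 0.1, no filter, a filter of 5 TPM, median centring, quantile normalization, the replicate number as a block, and leaving out each library. Promoter sequences were taken from RefSeq (GRCh38.p14), protein sequences were not used here, and no table of the authors' own tests was used.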

Additional observations from a re-analysis of the deposited data

How the results depend on the processing

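Between ePP-P21 and ePP-P9 no member was called under any of them, and PLIN3 (log2 fold change -0.084 to 0.066 when a library was left out) and PLIN5 (-0.0049 with quantile normalization and -0.20 to 0.70 when a library was left out) changed sign. Between ePP-β and ePP, the log2 fold changes when a library was left out were 4.27 to 4.56 for CIDEB, 2.45 to 2.64 for PLIN2 and 1.26 to 1.34 for PLIN3. CIDEC drops below the filter without an ePP-β library. PLIN5, given with no test, had a log2 fold change of -1.41 with a pseudocount of 0.1 and of -1.32 with quantile normalization. In the I-BET151 comparison the differences of CIDEB (-5.59 to -4.46), CIDEC (-6.40 to -4.96), PLIN2 (-1.06 to -0.42), PLIN3 (-1.96 to -0.43, lowest without DMSO replicate 2 and highest without DMSO replicate 1), PLIN4 (-1.16 to -0.25) and PLIN5 (0.05 to 0.66) kept their sign.

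Counts of called genes moved more. Between I-BET151 and DMSO the 35 genes became 0 with a pseudocount of 0.1 or no filter, 120 with median centring, 138 with quantile normalization and 107 to 1034 when a library was left out. The 0 lipid list genes became 2 with a filter of 5 TPM, 4 with median centring or quantile normalization and 8 to 24 without a library. When a library was left out, HSD17B11 ranged from -1.86 to 0.069 and UCP2 from -0.0031 to 1.52, both with a changed sign without I-BET151 replicate 1. The lipoprotein median was -1.50 without that library. Between ePP-P21 and ePP-P9 the 178 genes became 0 with no filter or median centring, 13 with quantile normalization and 0 to 478 without a library (0 without ePP-P21 replicate 1, 2 without ePP-P21 replicate 2). The 2 lipid list genes became 1 with a pseudocount of 0.1, 0 with no filter, median centring or quantile normalization, 4 with a filter of 5 TPM and 0 to 3 without a library. Between ePP-β and ePP 25 to 40 of the 41 lipid list genes were called without a library, and the lipoprotein median was 0.96 without ePP-β replicate 1. Fits that leave out a library assume that a lone library varies like the others. Median centring moved the median of all genes by -0.08, -0.21 and -0.14 log2 units in the 3 comparisons. The differences named between batches kept their sign with a pseudocount of 0.1 and with each library centred on its median. The causes of these changes were not tested.

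The labels give the same replicate numbers to the groups without saying what they share. Across genes the deviations of same-numbered libraries had an r of 0.675 between DMSO and I-BET151, of -0.009 between the ePP groups and of 0.03 and 0.04 between these and ePP-β. With the replicate block 2294 genes were called between I-BET151 and DMSO (34 of them in the lipid lists, 33 lower), 66 between ePP-P21 and ePP-P9 (1 in the lipid lists) and 5032 between ePP-β and ePP, and no call of a member changed.

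Depth is unknown, so values below 1 TPM, such as CIDEC in ePPs, cannot be told from 0 by counting error.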

Other observations

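PPARG, a nuclear receptor whose known targets include several CIDE and perilipin genes, was picked for these values after they were seen. PP2 held 3.21 TPM of it, the 4 ePP libraries 38.9 to 43.4 TPM, ePP-β 39.8 and 55.9 TPM and SC-β 12.2 TPM. It did not exceed 0.0105 TPM in hPSC and DE. Its level in the ePP libraries was within the range of the I-BET151 libraries (25.2 and 55.4 TPM), which were of another batch. Both DMSO libraries held more of it than either I-BET151 library, but the lower DMSO value was close to the higher I-BET151 value. Replicate 1 was above replicate 2 in both groups. Of all genes kept in that comparison, 18.0% were lower with I-BET151 in this way. The part of PPARG in the values of the members was not tested.

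CIDECP1, a pseudogene copy of CIDEC, was at 4.33 and 8.17 TPM with DMSO and at 8.97 and 9.97 TPM with I-BET151, while ePP-β held 16.4 and 14.1 TPM and the 4 ePP libraries 4.82 to 8.02 TPM. The reads that the gene and this copy may share were not tested. A second copy, CIDECP2, did not exceed 1.72 TPM in any library.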
